A study of Mus musculus with 48 samples.

Results

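Lysine 5' tRNA fragments are short RNAs that begin at the 5' end of a lysine transfer RNA (tRNA). Members were all tRNA fragments (tRFs) that the deposited annotation types as 5'-half or 5'-tRF, whose every listed parent is a lysine tRNA, and that had 10 or more counts summed over all 48 libraries. This rule found 75 of 13007 tRFs, of which 3302 reached 10 counts. The members held 540516 of 12563678 tRF counts (4.302%). The anticodon CTT accounted for 47 members and 521580 counts, and the anticodon TTT for 28 members and 18936 counts. The members were chosen by their summed count, which is given as a description. The 4 members just inside the threshold had 10 counts each and the 3 lysine 5' tRFs just outside had 9, and 60 lysine 5' tRFs below it held 180 counts in all.

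The series measured small RNA in a sympathetic ganglion of the neck, the superior cervical ganglion (SCG), and in a sensory ganglion of the head, the trigeminal (TG), of Balb/c mice aged 2.5 months. Mice received 0.2 mL of saline into the peritoneum, alone or with lipopolysaccharide (LPS) of E. coli O55:B5 at 2.5 mg/kg, and were killed 4 h, 24 h or 7 d later. Each of the 12 groups of ganglion, time and treatment had 4 libraries, from 2 female and 2 male mice, each made from 140 ng of total RNA of both ganglia of that kind of 1 mouse. Whole ganglia hold neurons, glia and other cells, so that fewer cells of a type and less RNA per cell cannot be told apart, and no genotype beyond the strain is given in the labels.

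A tRNA folds into a cloverleaf, and nucleases such as angiogenin can cut its anticodon loop when cells are stressed, which leaves a 5' and a 3' piece. Lysine has a pair of main tRNA kinds, with anticodon CTT reading the codon AAG and anticodon TTT reading AAA. Pieces of tRNAs have been linked to the control of translation and to stress responses, and the exact last base of a fragment shows where the tRNA was cut or later trimmed.

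The longest unsubstituted member of each anticodon, with the anticodon in capitals, shows how alike the parents are at this end, and where the anticodon lies.
LysCTT, 42 nt: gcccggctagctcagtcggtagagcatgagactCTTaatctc
LysTTT, 40 nt: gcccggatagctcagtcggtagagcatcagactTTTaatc
Positions are counted from 1 at the 5' end of the tRNA. Over the 40 bases that both sequences share, LysCTT and LysTTT differed by C7A, G28C and C34T, the first letter being that of LysCTT. The anticodon took bases 34 to 36, so that a fragment of 33 nt ends just before it. The annotation calls a fragment that ends at base 32 to 35 a 5'-half, and one that ends at base 31 or earlier, or at base 36 or later, a 5'-tRF.

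The results turn on the following fragments, which start at the same base and differ within an anticodon in where they end, the last base being in capitals.
LysCTT, 31 nt: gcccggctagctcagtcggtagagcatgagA
LysCTT, 32 nt: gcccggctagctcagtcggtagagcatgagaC
LysCTT, 33 nt: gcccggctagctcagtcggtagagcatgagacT
LysCTT, 34 nt: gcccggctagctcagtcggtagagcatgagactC
LysCTT, 36 nt: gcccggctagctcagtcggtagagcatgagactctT
LysTTT, 33 nt: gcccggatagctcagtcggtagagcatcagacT
LysTTT, 34 nt: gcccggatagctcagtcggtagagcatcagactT
The 33-nt CTT fragment, tRF-33-PSQP4PW3FJI0W, was the most abundant member, with 211552 counts. It was followed by the 31-nt fragment tRF-31-PSQP4PW3FJI0B (84019 counts), the 32-nt fragment tRF-32-PSQP4PW3FJI01 (80534) and the 34-nt fragment tRF-34-PSQP4PW3FJI0E5 (45470). Among the TTT fragments the 33-nt tRF-33-PS5P4PW3FJHPW (8965 counts) and the 34-nt tRF-34-PS5P4PW3FJHPEQ (2937) led.

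Total tRF counts ran from 61218 to 1511191 per library (median 204269), and lysine 5' tRFs took 2341 to 52900 of them (median 9835.5), with 40 to 68 members detected. Levels of tRFs are in CPM, the tRF count relative to the library's total tRF count, with totals scaled by the trimmed mean of M-values (TMM). Levels of miRNAs, also in CPM, are relative to the library's total miRNA count, scaled in the same way. Of the 75 members, 40 passed the filter on low counts in at least 1 comparison and held 99.6% of the members' counts. The other 35 had at most 182 counts each. Marker microRNAs (miRNAs) differed between the ganglia: the sensory neuron list (miR-183-5p, miR-96-5p and miR-182-5p, 3 of 3 present) summed to 57037 to 88281 CPM in TG and 221 to 21076 CPM in SCG, and none of its members was at 0. By their markers 10 libraries were set apart from their groups, and 1 more that was kept is named after them. SCG 4 h saline replicates 1 and 2 had 94291 and 20092 CPM of muscle miRNAs (SCG median 686), and replicate 1 also had 11457 CPM of epithelial miRNAs. SCG 24 h saline replicate 1 had 21076 CPM of sensory neuron miRNAs, SCG 7 d LPS replicate 2 had 35378 CPM of muscle and 4554 CPM of leukocyte miRNAs, and TG 7 d saline replicates 1, 2 and 4 had 50718 to 54574 CPM of neuron miRNAs (TG median 29389). SCG 7 d LPS replicate 2 was also low in glia miRNAs, at 40.0 CPM (SCG median 522). Its neuron miRNAs summed to 35885 CPM, nearly all miR-128-3p (35652 CPM). Its miR-9-5p (230 CPM, SCG median 8250) and miR-124-3p (3.58 CPM, SCG median 141) were the lowest in SCG. A further 3 libraries stood apart by muscle miRNAs: SCG 4 h LPS replicate 1 (12096 CPM), TG 24 h saline replicate 1 (15122 CPM) and TG 24 h LPS replicate 4 (13551 CPM; TG median 5964). SCG 7 d saline replicate 1 also differed from its group but was not among the 10. It had 6814 CPM of sensory neuron miRNAs, with its group otherwise at 856 to 1173 CPM. Its glia miRNAs, at 1007 CPM, were the highest in SCG. Epithelial miRNAs varied over all TG libraries, from 83.6 to 5254 CPM. Results are given without the 7 libraries named first and, where it matters, without all 10.

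Over the 12 groups, the summed level of the CTT members was highest in SCG 4 h LPS, at 80051 ± 36371 CPM (mean ± SD, n = 4), and lowest in TG 4 h saline, at 33336 ± 16475 CPM. The 4 libraries of SCG 4 h LPS stood at 126319, 64618, 41031 and 88236 CPM, and those of TG 4 h saline at 20986, 45938, 17354 and 49068 CPM. Replicate 1, at 126319 CPM, is the library with 12096 CPM of muscle miRNAs, whose part in the level was not tested, and without it the group stood at 64628 ± 23603 CPM (n = 3). These groups overlap, and between all 11 pairs of neighbours in the order of the 12 group means the difference was smaller than the larger SD. The order depended on the scaling: as a plain share of tRF counts, CTT members were highest in TG 24 h LPS (5.91% ± 0.904) and lowest in SCG 7 d saline (3.36% ± 1.65), and SCG 4 h LPS had 3.89% ± 0.810 (n = 4 each). Over all libraries the plain share was 3.82% ± 1.15 in SCG and 4.74% ± 1.12 in TG (n = 24 each), with overlap.

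The TTT members, at a much lower level, had the same groups at the ends of the TMM-scaled order. Their summed level was 3002 ± 1308 CPM in SCG 4 h LPS and 1105 ± 339 CPM in TG 4 h saline (n = 4 each), and again 11 of 11 neighbouring groups differed by less than the larger SD. This order, too, depended on the scaling. As a plain share of tRF counts the highest TTT mean was 0.208% in TG 4 h LPS and the lowest 0.112% in SCG 7 d saline. On that share SCG 4 h LPS had 0.150% and TG 4 h saline 0.149%. In SCG 4 h saline the TTT members reached 5495 CPM in replicate 1, the library with the muscle and epithelial markers, against 1198, 1523 and 1075 CPM in the other 3. TTT fragments made up 3.74% ± 1.00 of the lysine 5' counts of an SCG library (1.92% to 6.33%) and 3.74% ± 0.881 of a TG library (2.39% to 5.20%; n = 24 each), and these means differed by less than the spread between libraries.

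**Figure D1:**
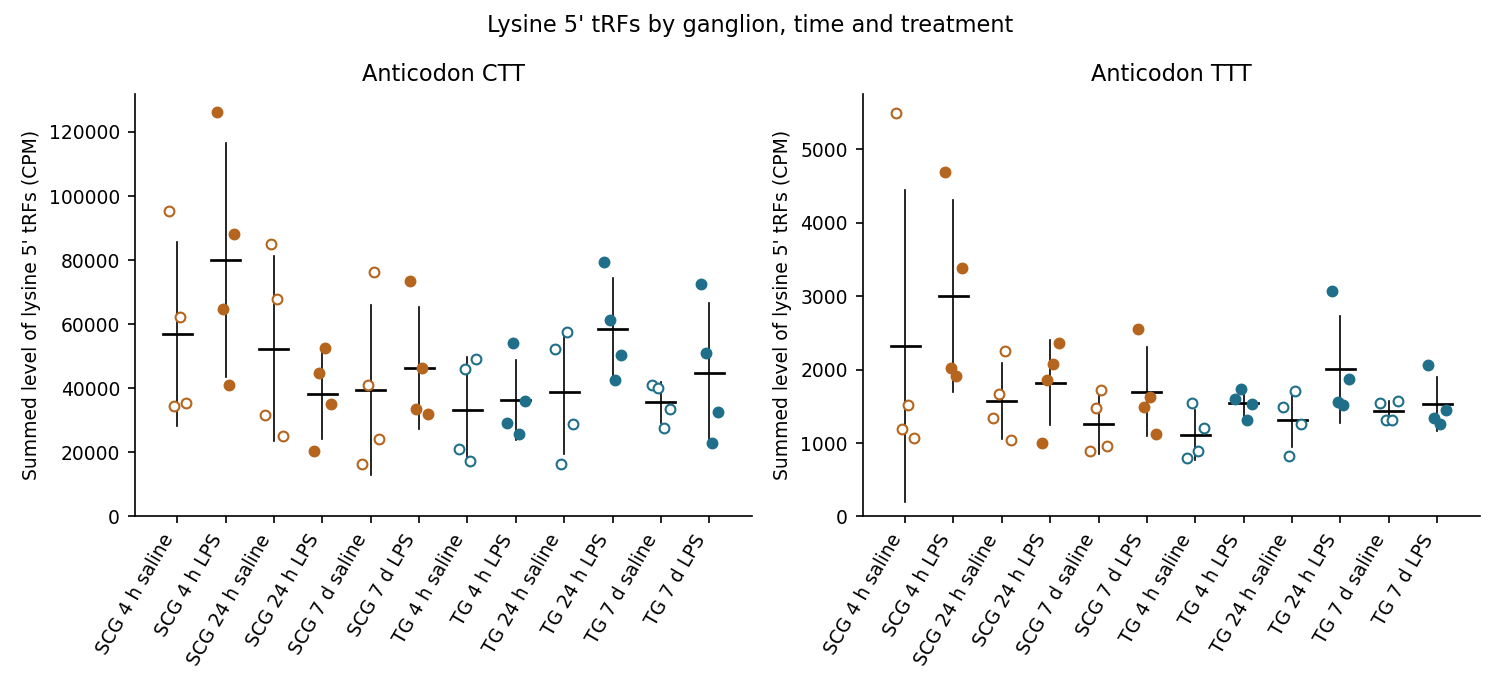
Summed level of the lysine 5' tRFs in CPM (vertical axis, linear) in each of the 12 groups, for anticodon CTT (left) and TTT (right). Each point is a library (open, saline; filled, LPS), the bar is the mean and the line the SD of 4 libraries; the CTT members reach 126319 CPM in SCG 4 h LPS, and a single SCG 4 h saline library stands at 5495 CPM in the TTT panel.

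The 3' ends, unlike the sums, separated the ganglia. For anticodon CTT, fragments ending at base 31 made up 20.9% ± 9.36 of the counts that start at base 1 in SCG and 5.06% ± 2.73 in TG (mean ± SD, n = 24 libraries each). Fragments ending at base 32 made up 19.9% ± 3.97 in SCG and 9.70% ± 2.58 in TG. The order of the ganglia turned at base 33: the 33-nt end took 38.9% ± 11.5 in SCG and 58.2% ± 5.20 in TG, and the 34-nt end 6.25% ± 1.98 and 13.3% ± 5.23. The 35-nt end took 4.31% ± 4.49 and 7.31% ± 2.30, and the 36-nt end 0.410% ± 0.671 and 1.17% ± 0.590. Base 33 was the most frequent CTT end in both ganglia, and the ganglia differed in the shares of the ends on either side of it. Bases 33 to 36 together held 49.9% ± 13.1 of CTT counts in SCG and 80.0% ± 5.42 in TG.

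Taken over bases 28 to 32, the short ends held 30.2% to 77.1% of CTT counts in SCG libraries (median 45.0%) and 10.7% to 36.1% in TG libraries (median 16.7%). In 6 of the 6 matched pairs of time and treatment, the 4 TG libraries were all below the 4 SCG libraries. The highest TG library, TG 7 d LPS replicate 4 at 36.1%, was the only one of 24 not below every SCG library. Without the 7 libraries set apart by their markers the ranges were 30.8% to 77.1% (n = 20) and 10.7% to 36.1% (n = 21), and without all 10 they were the same (n = 19 each). These shares are a summary over members and were given no test.

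For anticodon TTT the ends differed from those of CTT at base 34 and in the summed share of the short ends, though not in direction at base 31. As for CTT, the 33-nt end had the larger share in TG, with 39.6% ± 7.87 in SCG and 59.2% ± 7.13 in TG. The 34-nt end, however, took 21.5% ± 9.46 in SCG and 6.65% ± 4.21 in TG, opposite to the 34-nt end of CTT. The short ends at 28 to 32 took 14.4% ± 6.24 in SCG and 10.6% ± 2.84 in TG, and the ganglia overlapped in all 6 matched pairs.

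**Figure D2:**
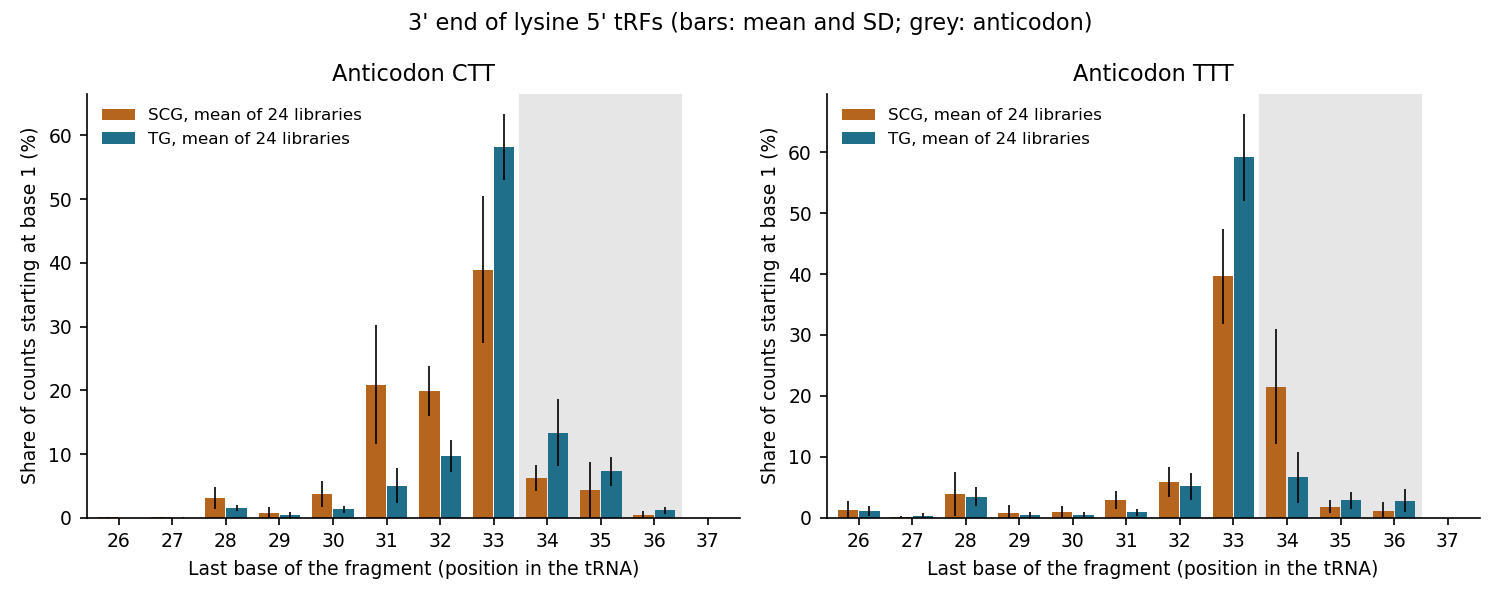
Share of the counts of fragments starting at base 1 (vertical axis, %) by the last base of the fragment (horizontal axis), for anticodon CTT (left) and TTT (right), in SCG and TG; bars are means and lines SDs over 24 libraries, and grey marks the anticodon. CTT ends at base 31 stand at 20.9% in SCG and 5.06% in TG, while the TTT end at base 34 stands at 21.5% and 6.65%.

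A single pair of fragments shows the TTT difference at base 34 within a library. The count of the 34-nt over that of the 33-nt TTT fragment was 0.572 ± 0.302 in SCG (0.204 to 1.39) and 0.117 ± 0.0853 in TG (0 to 0.354; n = 24 each). In 22 of 24 TG libraries this ratio was below that of every SCG library. The same ratio for CTT was 0.176 ± 0.0543 in SCG and 0.246 ± 0.115 in TG, with no TG library below every SCG library and 7 above. The 31-nt over the 33-nt CTT fragment was 0.763 ± 0.683 in SCG and 0.10 ± 0.0608 in TG, and 22 of 24 TG libraries were below every SCG library. For TTT, at far fewer counts, the 31-nt over the 33-nt fragment was 0.0783 ± 0.0445 in SCG and 0.0152 ± 0.0107 in TG. In 15 of 24 TG libraries that TTT ratio was below every SCG library.

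**Figure D3:**
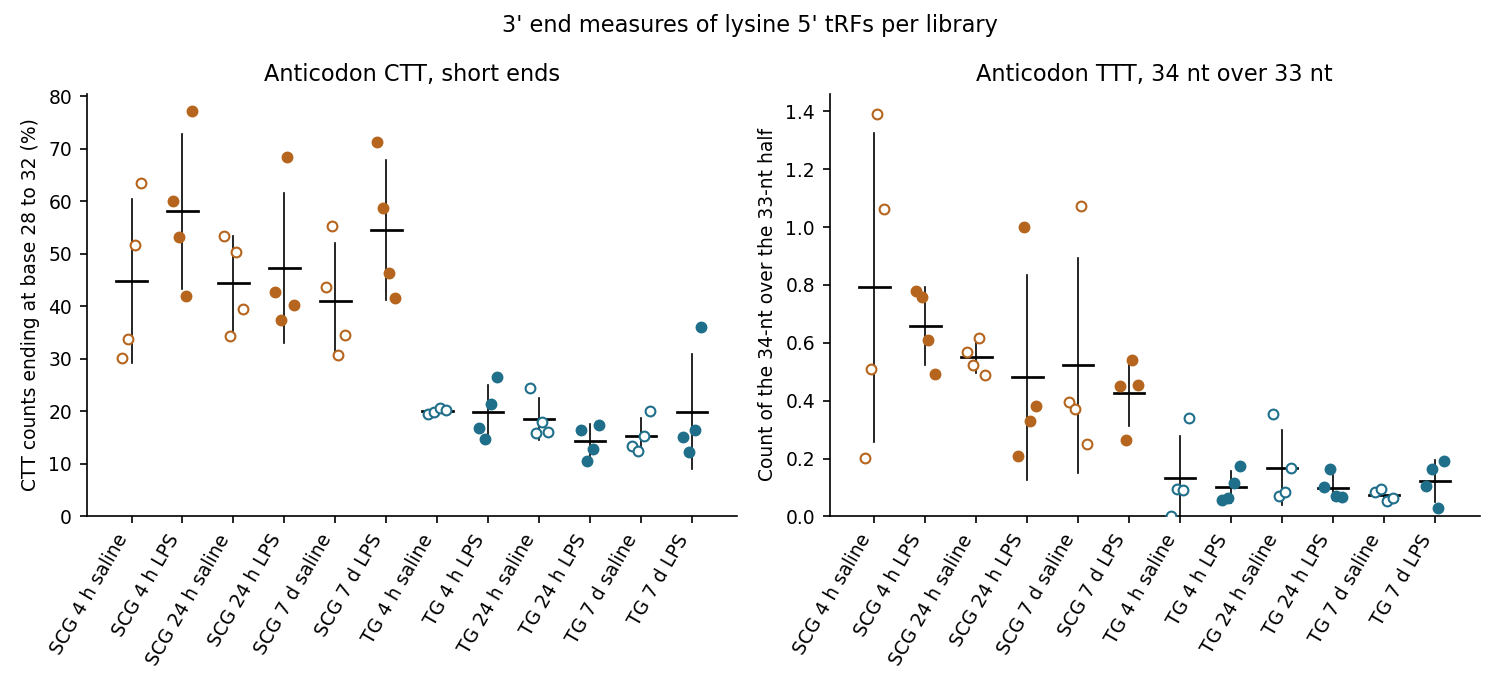
Left, share of CTT counts ending at base 28 to 32 (%) in each library; right, count of the 34-nt over the 33-nt TTT fragment. Points are libraries (open, saline; filled, LPS; brown, SCG; blue, TG), bars means and lines SDs of 4; SCG libraries span 30.2% to 77.1% on the left and TG libraries 10.7% to 36.1%.

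Single fragments were tested with edgeR's quasi-likelihood F-test over the whole tRF table, with Benjamini-Hochberg adjustment over all tRFs tested and a threshold of 0.05. After saline, 7 of 27 tested members (25.9%) differed between TG and SCG, 1 higher and 6 lower in TG, beside 42.7% of all 571 tRFs tested. After LPS it was 18 of 35 (51.4%), 9 higher and 9 lower, beside 50.3% of 599, a share close to that of tRFs in general. Of the 18, 14 (8 higher and 6 lower) passed the filter on low counts within each ganglion, while 3 passed within SCG only, all lower in TG, and 1 within TG only, higher in TG. Those 4 entered the test through the ganglion in which they were higher, so the counts over members describe and support nothing. The 7 members called after saline passed within both ganglia. The median log2 fold change (TG over SCG) was -0.28 for the members and -0.04 for all tRFs after saline, and -0.26 and -0.03 after LPS. For 5' tRFs of other parents it was -0.36 after saline and -0.33 after LPS. Scaling by the miRNA counts instead moved the median of all tRFs to -0.13 after saline and -0.36 after LPS, and gave 0 higher and 6 lower after saline and 3 higher and 11 lower after LPS. The saline and LPS comparisons share no library.

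The largest fall was at base 31. After saline tRF-31-PSQP4PW3FJI0B stood at 3273 to 15696 CPM in 12 SCG libraries (median 8737) and at 701 to 3544 CPM in 12 TG libraries (median 1503). After LPS it stood at 2886 to 40380 CPM in SCG (median 9180) and at 931 to 4870 CPM in TG (median 1871). The ganglia were nearly separate: 11 of 12 saline and 10 of 12 LPS libraries of TG were below every SCG library. Its log2 fold change was -2.32 ± 0.33 after saline (SE; edgeR adjusted p = 2.63e-06) and -2.64 ± 0.39 after LPS (adjusted p = 3.88e-06). The 31-nt TTT fragment tRF-31-PS5P4PW3FJHPB passed the filter within SCG and not within TG, so its level is given as a description: after LPS it stood at 7.97 to 188 CPM in SCG (median 71.7) and 5.33 to 29.1 CPM in TG (median 12).

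The other short CTT fragments fell as well. The 32-nt tRF-32-PSQP4PW3FJI01 stood after saline at 2146 to 16237 CPM in SCG (median 8340) and 1434 to 7537 CPM in TG (median 2899), with overlap. Its log2 fold change was -1.35 ± 0.32 after saline (edgeR adjusted p = 0.00107) and -1.33 ± 0.26 after LPS (adjusted p = 9.56e-05). The 30-nt tRF-30-PSQP4PW3FJI0 changed by -1.78 ± 0.30 and -2.01 ± 0.43, and the 28-nt tRF-28-PSQP4PW3FJD0 by -1.15 ± 0.30 and -1.56 ± 0.41, all past the threshold. The 29-nt tRF-29-PSQP4PW3FJFL fell after saline (-1.19 ± 0.41, edgeR adjusted p = 0.0203) and had -1.38 ± 0.79 after LPS, with no call (adjusted p = 0.164). The saline call of that fragment was lost without SCG 24 h saline replicate 1 (-0.94, adjusted p = 0.0509) and without the 7 libraries set apart (-0.14, adjusted p = 0.858).

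The 33-nt CTT fragment, tRF-33-PSQP4PW3FJI0W, lay between. It stood at 5583 to 43541 CPM in SCG (median 13438) and 7896 to 30829 CPM in TG (median 16892) after saline, a log2 fold change of -0.15 ± 0.34 (edgeR adjusted p = 0.744). After LPS the ranges were 7638 to 35368 CPM (median 14240) and 11688 to 43438 CPM (median 25381), a log2 fold change of 0.63 ± 0.25 (adjusted p = 0.0379), and the libraries overlapped. With scaling by the miRNA counts the LPS value was 0.35 and no call (adjusted p = 0.411), and without the 7 libraries it was 0.55 (adjusted p = 0.0745).

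CTT fragments of 34 to 36 nt were higher in TG after LPS. The 36-nt tRF-36-PSQP4PW3FJI0E7E stood after LPS at 20.8 to 181 CPM in 12 SCG libraries (median 62.3) and at 139 to 586 CPM in 12 TG libraries (median 311), and 11 TG libraries were above every SCG library. Its log2 fold change was 2.27 ± 0.31 (edgeR adjusted p = 8.99e-07), and that of the 36-nt fragment with the substitution A29G, tRF-36-PSQP4PW3FJIKE7E, 2.16 ± 0.31 (adjusted p = 1.81e-06). After LPS the 34-nt and 35-nt CTT fragments rose by 0.90 ± 0.26 and 1.18 ± 0.28 (edgeR adjusted p = 0.00577 and 0.00106), calls that scaling by the miRNA counts did not keep (adjusted p = 0.170 and 0.0533). The 36-nt CTT fragments with and without A29G were still called higher with that scaling, as was the 36-nt TTT fragment tRF-36-PS5P4PW3FJHPEZE. The TTT fragment had 1.70 ± 0.46 in the TMM-scaled fit, a description only, since it passed the filter within TG and not within SCG.

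After saline the call depended on 1 library. In SCG 4 h saline replicate 1 the 36-nt fragment tRF-36-PSQP4PW3FJI0E7E reached 2369 CPM, against 41.7 to 246 CPM in the other 11 saline libraries of SCG and 137 to 500 CPM in TG. With that library the log2 fold change was 0.65 ± 0.61 (edgeR adjusted p = 0.420), and without it 1.57 ± 0.25 (adjusted p = 1.24e-05). Leaving it out raised the saline calls from 7 to 14 of 28 tested members, 8 higher and 6 lower in TG, beside 44.3% of 612 tRFs. The 8 were the CTT fragments of 34, 35 and 36 nt, each with and without A29G, and the TTT fragments of 33 and 36 nt. With all libraries the 33-nt TTT fragment tRF-33-PS5P4PW3FJHPW had 0.05 ± 0.34 after saline (edgeR adjusted p = 0.916), and -0.11 with scaling by the miRNA counts. Without all 7 libraries set apart, 8 of 34 members were called after saline (3 higher and 5 lower, beside 25.9% of 821), and 18 of 38 after LPS (8 higher and 10 lower, beside 47.5% of 657). Without all 10, it was 9 of 31 after saline (3 higher and 6 lower, beside 26.8% of 761) and 16 of 36 after LPS (7 higher and 9 lower, beside 43.5% of 637). SCG 4 h saline replicate 1 also held the muscle and epithelial markers given above, whose part in its lysine fragments was not tested.

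The 34-nt TTT fragment went against its CTT counterpart. After saline tRF-34-PS5P4PW3FJHPEQ stood at 108 to 656 CPM in SCG (median 306) and 0 to 256 CPM in TG (median 77.2). The TG library with 0 counts was TG 4 h saline replicate 1, the shallowest of the series, where 3 counts would be 25.2 CPM. After LPS the ranges were 112 to 1533 CPM (median 422) and 26.7 to 155 CPM (median 107). In TG 9 of 12 saline and 6 of 12 LPS libraries were below every SCG library. It fell by 2.00 ± 0.41 after saline and by 1.98 ± 0.34 after LPS on the log2 scale (edgeR adjusted p = 0.000278 and 2.28e-05), and by 2.01 and 2.08 without the 7 libraries set apart. The 34-nt CTT fragment tRF-34-PSQP4PW3FJI0E5 had 0.74 ± 0.35 after saline (adjusted p = 0.0881) and its A29G form, tRF-34-PSQP4PW3FJIKE5, 0.93 ± 0.35 (adjusted p = 0.0330), a call that was lost without the 7 libraries set apart (0.68, adjusted p = 0.189) and without all 10 (0.52, adjusted p = 0.364).

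**Figure D4:**
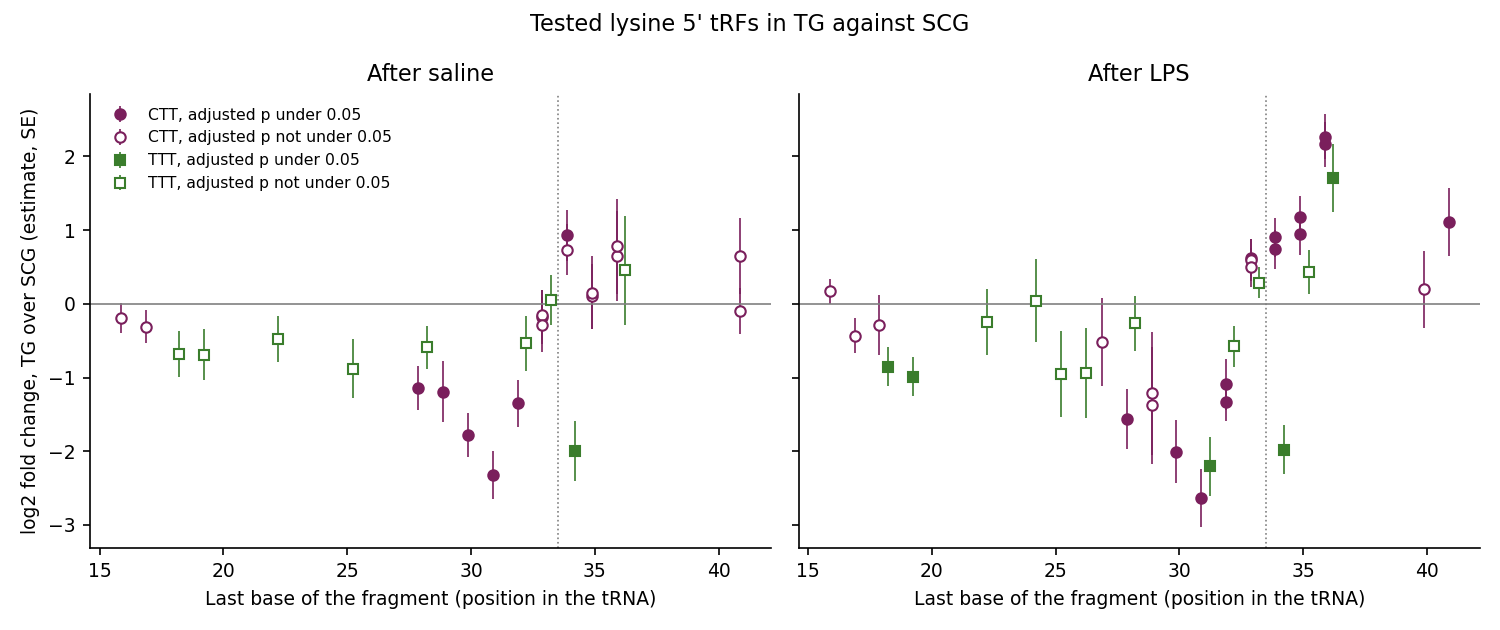
Log2 fold change of each tested member, TG over SCG (vertical axis; estimate and SE), by its last base (horizontal axis), after saline (left) and after LPS (right); circles are CTT and squares TTT members, filled where the adjusted p is under 0.05, and the dotted line marks the start of the anticodon. The 31-nt CTT fragment lies lowest at -2.32 and -2.64, the 36-nt fragments lie highest after LPS, and the 34-nt TTT fragment lies near -2 in both panels.

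Fragments of other parents are set beside the lysine ones by length. Only fragments that start at base 1 were used, as all tested members do here. This leaves out some of the 185 and 203 tested 5' tRFs of other parents after saline and LPS. Of the members of 28 to 32 nt, 0 were higher and 5 of 7 lower in TG after saline, and 0 higher and 6 of 10 lower after LPS, while of 5' tRFs of other parents 3 were higher and 41 of 53 lower, and 6 higher and 39 of 57 lower. Of the members of 33 to 36 nt, 1 of 12 was higher and 1 lower after saline (median log2 fold change 0.13), and 8 of 13 higher and 1 lower after LPS. Of other parents at 33 to 36 nt, 19 of 53 were higher and 8 lower after saline, and 28 of 55 higher and 9 lower after LPS. The 6 members lower after LPS include tRF-31-PS5P4PW3FJHPB and tRF-32-PSQP4PW3FJIK1, which passed the filter within SCG only. The 8 higher include tRF-36-PS5P4PW3FJHPEZE, which passed within TG only. Other parents were not split in this way, so these counts by length are a description. The share of counts ending at base 28 to 32 was 47.1% ± 12.8 in SCG and 17.7% ± 5.24 in TG for lysine, 37.1% ± 13.4 and 11.9% ± 5.06 for glutamate, 65.0% ± 9.45 and 37.4% ± 7.83 for histidine, and 40.3% ± 14 and 19.8% ± 7.65 for valine (n = 24 each). Glycine 5' tRFs stayed at 95.4% ± 2.00 and 92.5% ± 2.21. These shares, too, cover only fragments that start at base 1. For histidine that is 10 of 72 5' tRFs with 10 or more counts, so its share does not describe most histidine 5' tRFs. Other measures moved with the ganglion too: TG had 1.76 to 11.0 tRF counts for each 100 miRNA counts (median 3.99) and SCG 2.80 to 31.7 (median 8.08), and the glia markers (2 of 2 present, none at 0) summed to a median of 2785 CPM in TG and 522 CPM in SCG. Cell makeup and ganglion cannot be told apart here, and RNA integrity per library is not given in the labels.

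Between LPS and saline no lysine 5' tRF passed the threshold in any of 6 comparisons with the filter on low counts. With edgeR 0 of 34 members were called in SCG and 0 of 27 in TG at each time, beside 0% of 544 and 0% of 559 tRFs, and DESeq2 called 0 members in all 6. At an unadjusted p under 0.05 edgeR had 4, 2 and 1 members in SCG and 1, 3 and 0 in TG at 4 h, 24 h and 7 d. The members' median log2 fold changes (LPS over saline) were 0.28, -0.01 and 0.32 in SCG and 0.22, 0.45 and 0.09 in TG, beside -0.05, 0.08, 0.10, -0.03, -0.02 and 0.02 for all tRFs. For 5' tRFs of other parents they were 0.45, 0.05 and 0.22 in SCG and 0.18, 0.16 and 0.23 in TG. In the same libraries the miRNAs of the LPS response list (miR-155-5p, miR-146a-5p and miR-21a-5p) summed to 25645 to 37641 CPM in SCG 24 h LPS libraries and 6372 to 11792 CPM in SCG 24 h saline libraries. Other comparisons differed less. In TG at 7 d the sums were 10184 to 13783 CPM after LPS and 5087 to 7012 CPM after saline. In TG at 4 h they overlapped, at 7283 to 9720 CPM after LPS and 6082 to 7479 CPM after saline.

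**Figure D5:**
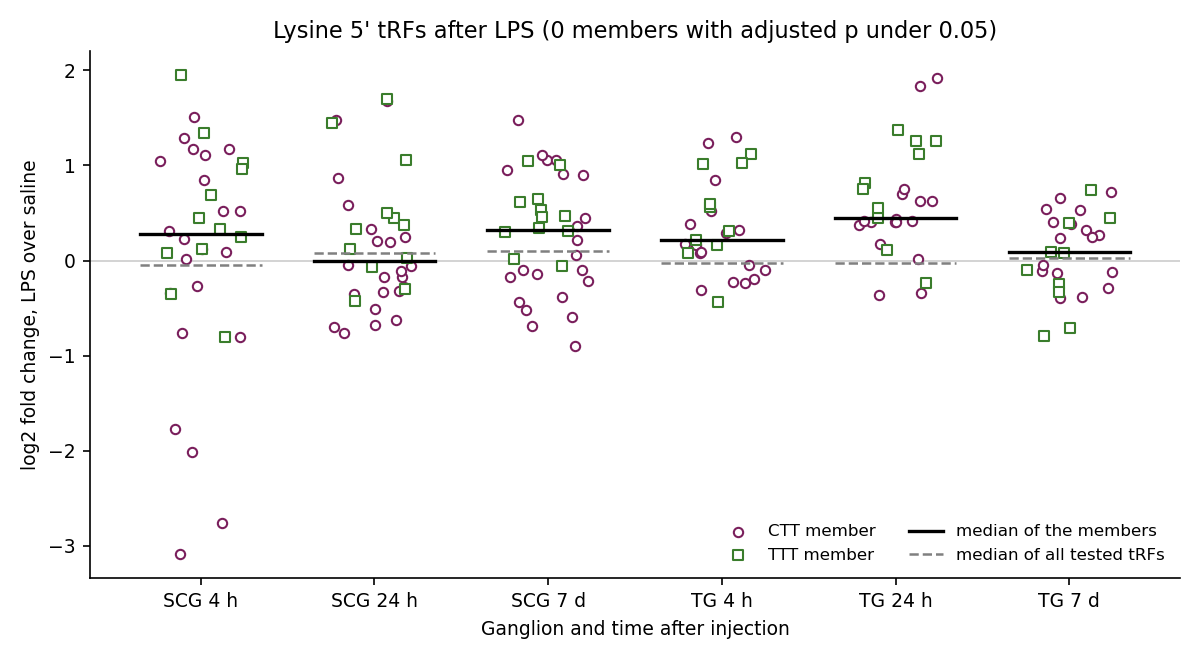
Log2 fold change of each tested member, LPS over saline (vertical axis), in the 6 comparisons of ganglion and time (horizontal axis); circles are CTT and squares TTT members, black lines are the members' medians and grey dashes those of all tested tRFs. All points are open because 0 members had an adjusted p under 0.05; the members' medians run from -0.01 in SCG at 24 h to 0.45 in TG at 24 h.

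The smallest p in SCG at 4 h belonged to the 36-nt CTT fragment, tRF-36-PSQP4PW3FJI0E7E. It stood at 2369, 99.6, 52.2 and 94.4 CPM after saline and at 69.3, 20.8, 38.7 and 181 CPM after LPS, so that a single saline library was far above the rest and the groups otherwise overlapped. Its log2 fold change was -3.08 ± 0.96 (edgeR adjusted p = 0.578), and 0.19 (adjusted p = 0.914) without the 7 libraries set apart, which include that one. In the difference of the LPS effect between ganglia this fragment and its A29G form were the 2 of 38 members at an unadjusted p under 0.05 (adjusted p = 0.982 and 0.989), and edgeR and DESeq2 called 0 members, beside 0% of 729 tRFs.

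In TG at 24 h the summed level of both anticodons had a higher mean after LPS, with overlap. CTT members summed to 52293, 16508, 57501 and 28869 CPM after saline and to 79320, 61254, 42686 and 50295 CPM after LPS, and 2 of 4 LPS libraries were above every saline library. The means gave a ratio of 1.51, with no test of the sum. As a plain share of tRF counts the CTT members had 4.10% ± 0.663 after saline and 5.91% ± 0.904 after LPS (n = 4 each), a ratio of 1.44, and 4 of 4 LPS libraries were above every saline library. TTT members summed to 1494, 819, 1706 and 1261 CPM after saline and to 3076, 1561, 1512 and 1871 CPM after LPS, a ratio of 1.52 with 2 of 4 LPS libraries above every saline library, and of 1.31 as a plain share, also with 2 of 4. TG 24 h saline replicate 1 and LPS replicate 4 are the libraries with the muscle miRNAs named above, whose part was not tested. Of 27 members, 24 had a log2 fold change above 0, beside 269 of 559 tRFs and 109 of the 179 tested 5' tRFs of other parents. The smallest p was that of the 41-nt tRF-41-PSQP4PW3FJI0E7UME (1.83 ± 0.69, edgeR adjusted p = 0.507), which stood at 56.0, 27.2, 64.1 and 29 CPM after saline and at 589, 33.3, 64.8 and 86.7 CPM after LPS. That value rests on LPS replicate 1, and with no filter on low counts the fragment was called (1.96, adjusted p = 0.0182).

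For the other 5 comparisons the sums are given by type as well. In SCG the summed CTT level after LPS over saline was 1.41-fold at 4 h, 0.729-fold at 24 h and 1.17-fold at 7 d, and in TG 1.09-fold at 4 h and 1.26-fold at 7 d, with at most 2 of 4 LPS libraries above every saline library. As a plain share of tRF counts the direction turned in SCG at 4 h (0.814-fold) and 24 h (1.02-fold) and in TG at 7 d (0.816-fold). The summed TTT level on the TMM scale was 1.29-fold, 1.16-fold and 1.35-fold in SCG at 4 h, 24 h and 7 d. In TG it was 1.40-fold at 4 h and 1.07-fold at 7 d. As a plain share the TTT ratios were 0.791, 1.44 and 1.14 in SCG and 1.39 and 0.770 in TG, in that order. On that share 3 of 4 LPS libraries were above every saline library in SCG at 24 h and in TG at 4 h. In SCG at 7 d it was 1 of 4, and in SCG at 4 h and TG at 7 d 0 of 4. The CTT 5'-tRFs alone, which include the 31-nt fragment, had 2.23-fold the saline level in SCG at 4 h and 1.85-fold at 7 d. On this TMM scale 2 of 4 and 1 of 4 LPS libraries were above every saline library. With scaling by the miRNA counts the ratios were 2.98-fold and 2.46-fold. As a plain share of tRF counts they were smaller, at 1.259-fold and 1.501-fold. On that share 1 of 4 LPS libraries was above every saline library at each of these times. The CTT fragments typed 5'-half had 1.12-fold and 0.946-fold in SCG at 4 h and 7 d on the TMM scale. They had 1.353-fold and 1.297-fold with scaling by the miRNA counts, and 0.657-fold and 0.873-fold as a plain share. These ratios of sums were given no test. The smallest p belonged to the 28-nt TTT fragment tRF-28-PS5P4PW3FJDD in SCG at 24 h (1.70 ± 0.66, edgeR adjusted p = 0.854) and to the 16-nt CTT fragment tRF-16-PSQP4PE in SCG at 7 d (-0.90 ± 0.33, adjusted p = 0.831). In TG it belonged to tRF-36-PSQP4PW3FJIKE7E at 4 h (0.84 ± 0.39, edgeR adjusted p = 0.934) and to the 31-nt CTT fragment tRF-31-PSQP4PW3FJI0B at 7 d (0.72 ± 0.48, adjusted p = 0.876). The share of CTT counts ending at base 28 to 32 was 43.4% ± 11.1 after saline and 53.3% ± 13.6 after LPS in SCG, and 18% ± 3.46 and 18.1% ± 7.06 in TG (n = 12 each), with overlap in both ganglia.

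Sex was a term of the same fits. Between male and female mice 0 of 34 members in SCG and 0 of 27 in TG were called by edgeR and by DESeq2, beside 0% of all 544 and 559 tRFs by edgeR (DESeq2 called 5 and 2 of all tRFs). At an unadjusted p under 0.05 there were 1 and 6 members, and the 6 in TG had lower estimates in males. The median log2 fold change (male over female) in TG was -0.36 for the members and 0.02 for all tRFs, and 5 of 27 members had a value above 0. For 5' tRFs of other parents in TG the median was -0.26, with 45 of 179 above 0. Among them the 34-nt CTT fragment had -0.90 ± 0.32 (edgeR adjusted p = 0.329).

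Sequence variants of the members carried patterns of their own. Of the CTT counts, 92.9% lay in 23 members with no substitution from the longest CTT sequence, 4.90% in 3 members with T33C and 2.12% in 12 members with A29G. The 33-nt T33C and A29G members, with the substituted base in capitals, read as follows.
LysCTT T33C, 33 nt: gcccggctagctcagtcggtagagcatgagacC
LysCTT A29G, 33 nt: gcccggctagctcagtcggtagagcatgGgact
The T33C form, tRF-33-PSQP4PW3FJI0V, held 25428 counts, which is 10.7% of fragments of 33 nt with either base at position 33 (3.93% to 13.9% over 48 libraries). Among fragments of 34 nt the T33C share was 0.187%, and among those of 35 nt 0.149%. The substitution was thus nearly limited to fragments that end at the substituted base itself, and its share at 33 nt was 10.8% in SCG and 10.7% in TG.

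A29G, in contrast, had a share that differed with the last base and did not follow length throughout. Its share was 8.39% among CTT fragments ending at base 29, the substituted base itself, and 0.694% at base 30. From there it was 0.370% among fragments ending at base 31, 0.497% at 32, 0.990% at 33, 6.99% at 34, 13% at 35 and 26.9% at 36. SCG and TG gave nearly the same shares, at 7.33% and 6.81% at base 34 and at 26.2% and 27.2% at base 36. Among the few fragments that reached base 40, 41 and 42 the share was 39.8%, 26.2% and 69.5%, with no steady order. These shares pool the counts of 48 libraries. In TG against SCG the 36-nt A29G member followed the unsubstituted one, as given above. The rare 42-nt members did not after LPS. The unsubstituted one had a mean of 2.20 CPM in SCG and 9.78 CPM in TG, and the A29G one, which also carries T41C, 21.4 and 13.1 CPM. After saline both had the higher mean in TG.

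TTT members were more uniform. Of their counts 98.8% lay in 21 members with no substitution, and 1 member with C4T had 10 counts. Members with an extra base before base 1 were rare in both anticodons: 3 of CTT, all with C, had 84 counts, and 6 of TTT, with A, C or G, had 208. Among the TTT 5'-tRFs the highest mean levels over all libraries were those of the 25-nt tRF-25-PS5P4PW3FJ (66.8 CPM), the 28-nt tRF-28-PS5P4PW3FJDD (61.5 CPM), the 22-nt tRF-22-PS5P4PW3H (57.3 CPM) and the 18-nt tRF-18-PS5P4P0K (51.5 CPM), so that TTT had several short ends at similar levels. Of these the 18-nt fragment fell in TG after LPS (-0.85 ± 0.27, edgeR adjusted p = 0.00947).

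Outside the members, other lysine fragments held fewer counts than the CTT members, though the i-tRFs held more than the TTT members. Lysine i-tRFs, which lie inside the tRNA, held 44599 counts in 250 tRFs with 10 or more counts, lysine 3'-tRFs 327 counts in 12, and lysine 3'-half fragments 392 counts in 3. In TG against SCG, 14 of 37 tested after saline and 20 of 39 after LPS were called (10 and 12 higher, 4 and 8 lower), which is 37.8% and 51.3% beside 42.7% and 50.3% of all tRFs. The tRFs of other parents whose log2 level was most like the summed CTT level over the 12 group means were the 33-nt and 31-nt HisGTG fragments tRF-33-XSXMSL73VL4YDN and tRF-31-XSXMSL73VL4YD (Pearson r = 0.861 and 0.827) and the 29-nt GluTTC fragment tRF-29-86V8WPMN1EJ3 (0.823). For the summed TTT level they were fragments of GlyGCC, ValTAC and GluTTC (0.901, 0.868 and 0.853). These values describe 12 points that share libraries and depth.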

How the data were processed

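Small RNA was measured in 48 mouse ganglia libraries in 12 groups of 4, grouped by the ganglion, time and treatment in the labels. The title of 1 TG library lacks the first letter of LPS, and its treatment was taken from the treatment field. The authors deposited whole-number counts per tRF and per miRNA, without normalisation, and a text annotation of tRF types and parents. The submitters' processing notes name FastQC 0.11.9 and the build GRCm39, while the read aligner and counter were not given in sources used here. The parent locations in the deposited annotation are human, so no genome position is printed, and a fragment of a tRNA sequence that occurs in mouse only would be missing, which was not tested. Sequences were copied from the deposited annotation.

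Counts were tested with edgeR 4.0.16 in R 4.3.3 (quasi-likelihood F-test, robust, TMM scaling, edgeR's filterByExpr at its minimum of 10), with P values adjusted over all tRFs tested. LPS was compared with saline over the 24 libraries of a ganglion with a sex term, and TG with SCG over the 24 libraries of a treatment with terms for time and sex. The code was tested on simulated data. DESeq2 1.42.0, miRNA scaling, no filter, the 8 libraries of a time alone and leaving out each library were alternatives, and leaving out 7 or 10 libraries set apart by marker miRNAs was added after seeing the data. The members and lists were chosen with earlier results of these data known. Named members were, for each anticodon and type, the 4 with the highest mean level, up to 6 called per comparison by smallest p, and the smallest p in an LPS comparison with no call. Other members named were chosen after their values were seen. The 4 replicates of each group are separate mice per the labels.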

Additional observations from a re-analysis of the deposited data

Results flagged for a closer look

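Of 48 sets of 4 libraries examined, for each anticodon the summed level and the share of ends at base 28 to 32, 3 had 1 library whose gap to the others exceeded Dixon's critical value at the 95% level, as a share of the range. Chance gives this in about 1 in 20 sets. The summed level of TTT members in SCG 4 h saline replicate 1 was 5495 CPM, and the other 3 libraries of its group were between 1075 and 1523 CPM. In SCG 24 h LPS replicate 3 the share of CTT counts ending at base 28 to 32 was 68.5%, with the others at 37.5% to 42.7%. In the same library the share of TTT counts with those ends was 37.4%, with the others at 9.67% to 13.6%.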

How the results depend on the processing

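All counts of called members stayed within 1.5 times, or at 0, under DESeq2, miRNA scaling, omission of the 7 or 10 libraries set apart (both added after seeing the data) and omission of single libraries, except as follows. With no filter on low counts, 14 members were called in TG against SCG after saline (7 with the filter), 1 in TG after LPS at 24 h and 2 in TG males against females (0 each with the filter). Omitting 1 library at a time gave 5 to 14 called members in TG against SCG after saline, the 14 without SCG 4 h saline replicate 1, and 16 to 20 after LPS. It gave 0 in all other comparisons. Of the named members, the 36-nt CTT fragment tRF-36-PSQP4PW3FJI0E7E reversed in SCG at 4 h without the 7 libraries set apart, to 0.19, and without the 10, to 0.17. MiRNA scaling moved the log2 ratio of the summed TTT level in SCG at 7 d to 0.96 and the median of all tRFs in SCG to 0.34 at 4 h and 0.67 at 7 d, against -0.05 and 0.10. No paired analysis was possible because the replicate numbers follow the order of the samples and the labels do not say which libraries share a mouse. Depth limits rare fragments: in the shallowest library 3 counts correspond to 25.2 CPM.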
